A study of Mus musculus with 4 samples.

Results

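Ccl20, Daw1, Ppp1r14c, Rbm24 and 9430069I07Rik were the 5 genes whose chromatin was most open in IL-10+ over IL-10- regulatory T (Treg) cells in both tissues of a mouse colorectal cancer model. They led among the 14409 genes, of 21888 counted, that had at least 50 fragments over these Treg labels in each library. They were chosen by the smaller of the cecum and tumor log2 ratios of fragments between these Treg labels, so that contrast is given below as a description only. The question for these loci was which of the other T cell labels, whose cells did not enter the choice, had the same chromatin open, and at which positions.

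T cells were sorted from AKP tumors and from the adjacent tumor-free cecum of the tumor-bearing mice, and their nuclei were profiled with a 10x multiome assay. The assay cuts accessible DNA with a transposase (ATAC) and reads nuclear RNA in the same nucleus. AKP tumors grow in the cecal wall from transplanted cancer organoids, a single engineered line, and tissues were taken 4 weeks after transplantation. Each tissue had 1 ATAC library, the tissue and the library cannot be told apart, no test was possible and no p-value is given. The genotype and age of the host mice and the number pooled per library are not given in the sources used here. Both libraries came from tumor-bearing hosts, so no tumor-free animal was compared.

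The authors had labelled 15621 cells, 7155 from the cecum and 8466 from the tumor, with 17 cell types taken from the RNA of the same nuclei. Paired values here and below give the cecum and then the tumor. Labelled cells held 43980981 and 62118519 fragments, with a median of 4374 and 5846 per cell. IL-10+ Treg cells numbered 996 and 387, IL-10- Treg cells 424 and 737, Th17 cells 131 and 293 and Rorgt gdT cells, a label of γδ T cells, 438 and 273. Levels are fragments per 1000000 fragments of that label and library (FPM), counted for a gene over its span with 5 kb on each side. Every interval is an exact 95% interval, and intervals and floors cover counting error only, not variation between animals or cells. Levels of different genes are not compared, since their spans differ in length.

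Foxp3, the lineage factor of Treg cells, was at 102 and 79.2 FPM in IL-10+ Treg cells and at 97.3 and 76.0 FPM in IL-10- Treg cells, against 35.6 and 28.6 FPM in Th17 cells, which in the tumor was the median of all labels. Il10 was at 153 and 146 FPM in IL-10+ and 79.3 and 55.1 FPM in IL-10- Treg cells, while Ikzf4, an Ikaros family gene, was at 171 and 198 FPM in IL-10+ and 230 and 208 FPM in IL-10- Treg cells, with overlapping intervals in the tumor. Trdc, the γδ receptor constant region, was at 48.6 and 40.5 FPM in Rorgt gdT cells and had 0 fragments in cecum Th17 cells, where 3 fragments would be 3.44 FPM, and 2 in tumor Th17 cells. The libraries shared 84 barcodes of labelled cells, 10 of them in cecum and 1 in tumor IL-10+ Treg cells, and the single-gene ratios moved by less than their intervals without these 168 cells. Summed fragments over 10 epithelial, 6 B cell and 6 myeloid marker genes were taken in each label. IL-10+ Treg cells held 112 and 115 FPM of the epithelial genes (all labels spanned 87.7 to 208 FPM and 98.1 to 208 FPM), 149 and 155 FPM of the B cell genes (137 to 226 and 141 to 207 FPM), and the lowest level of the myeloid genes, 81.6 and 88.7 FPM (up to 139 and 147.2 FPM).

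As background, Treg cells restrain immune responses, and in the gut a large part of them respond to the microbiota. Th17 cells are CD4+ cells that make interleukin-17, which some γδ T cells make too. Accessible chromatin marks promoters and distal elements that can bind transcription factors, and a gene can lie in open chromatin without being transcribed. RNA was not analysed here, so no statement below is about expression.

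The members have unlike functions. Ccl20 encodes the chemokine that attracts cells bearing the receptor CCR6. Daw1 encodes a WD-repeat factor for assembly of the dynein arms of motile cilia. Ppp1r14c encodes an inhibitor of protein phosphatase 1, and Rbm24 an RNA-binding protein known for splicing in muscle and heart. In the RefSeq table of GRCm38.p6, which is the mm10 build of the fragments, Ccl20 (gene ID 20297) spans chromosome 1, 83116766 to 83119167, and Daw1 (71227) begins downstream of it at 83159742 and ends at 83210577. Ppp1r14c (76142) spans chromosome 10, 3365974 to 3464978, and Rbm24 (666794) chromosome 13, 46418102 to 46431099. The transcript 9430069I07Rik (77358) spans chromosome 15, 34349051 to 34357872, and lies wholly inside the span of Matn2, 34306681 to 34436242, so that its fragments are also fragments of Matn2, which encodes a matrilin of the extracellular matrix. The table gives no exons, so exonic and intronic positions are not stated.

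RefSeq promoters were found for 4 of the 5 genes and not for 9430069I07Rik. They are shown because the tiles described below placed most of the fragments at Ccl20 and Daw1 away from these promoters. In IL-10+ Treg cells the highest tiles of Ppp1r14c and Rbm24 lay at the start of the gene, but most Ppp1r14c fragments lay elsewhere in its window. Each line gives the 250 bases before a RefSeq transcription start in GRCm38.p6, all on the plus strand, at chr1:83116516-83116765 for Ccl20, chr1:83159505-83159754 for Daw1, chr10:3365900-3366149 for Ppp1r14c and chr13:46418050-46418299 for Rbm24. Capitals mark a match, on the reverse strand, to AGGTCA, the core of an element bound by many nuclear receptors.
Ccl20: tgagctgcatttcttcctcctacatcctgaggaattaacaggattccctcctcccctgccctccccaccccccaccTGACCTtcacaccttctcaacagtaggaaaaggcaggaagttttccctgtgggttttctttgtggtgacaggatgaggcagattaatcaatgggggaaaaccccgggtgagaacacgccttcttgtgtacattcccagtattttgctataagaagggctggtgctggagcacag
Daw1: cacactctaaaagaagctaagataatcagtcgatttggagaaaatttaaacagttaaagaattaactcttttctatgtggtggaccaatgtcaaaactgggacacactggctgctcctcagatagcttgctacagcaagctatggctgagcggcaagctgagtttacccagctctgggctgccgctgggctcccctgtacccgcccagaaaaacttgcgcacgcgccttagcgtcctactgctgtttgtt
Ppp1r14c: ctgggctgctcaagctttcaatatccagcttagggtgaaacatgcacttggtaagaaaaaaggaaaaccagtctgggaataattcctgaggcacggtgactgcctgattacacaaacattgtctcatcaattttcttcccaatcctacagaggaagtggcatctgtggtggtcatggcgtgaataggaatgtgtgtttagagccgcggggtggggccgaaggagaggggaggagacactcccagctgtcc
Rbm24: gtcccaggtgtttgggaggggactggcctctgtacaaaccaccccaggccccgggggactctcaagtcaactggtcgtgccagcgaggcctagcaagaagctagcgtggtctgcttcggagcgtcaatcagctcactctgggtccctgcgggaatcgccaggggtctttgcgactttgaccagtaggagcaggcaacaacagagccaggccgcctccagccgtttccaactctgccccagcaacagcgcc

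This was the only match in the 4 sequences to 5 motifs searched on both strands, and AGGTCA occurred in 13.8% of 27025 promoters of the same length. TGANTCA (AP-1) occurred in 6.87% of promoters, GGGANTTCC (NF-kB) in 1.42%, TGTGGTT (RUNX) in 4.46% and TGACGTCA (CREB/ATF) in 1.62%, and none was in these 4. In IL-10+ Treg cells the Ccl20 promoter held 10 and 4 fragments, 1.75 and 1.47 FPM, of 169 and 59 over the whole window of the gene. The Daw1 promoter held 26 and 11 fragments (4.55 and 4.03 FPM), and that of Ppp1r14c 5 and 4.

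The values that chose the members were log2 ratios between the Treg labels, IL-10+ over IL-10-, with 1 FPM added to each level. They were 3.95 and 3.17 for Daw1, 3.33 and 2.98 for Ppp1r14c, 4.52 and 2.97 for Ccl20, 2.22 and 2.31 for 9430069I07Rik and 1.97 and 2.32 for Rbm24, the last inside. Just outside were Pou2af1 at 1.97 and 1.84, 1700012B07Rik at 2.14 and 1.83, and Il1r1 at 1.80 and 1.77. The interleukin-17A gene Il17a, at 3.20 and 2.72, had too few fragments in the Treg labels to be ranked. Of 14409 genes tested in this contrast, 40 were at least 2-fold higher in IL-10+ Treg cells of cecum and tumor alike, which is 0.278%, and the 5 members were among them by choice. All 5 had the required 50 fragments in each library, but they reached this number through their IL-10+ Treg fragments, as few as 74 and 41 for 9430069I07Rik, so that count carries no weight. The level of IL-10+ Treg cells entered the choice. A lead of this label at a member, its distance from other labels and their ratios over it are therefore descriptions, read on genes picked for a high value in it.

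Over its window with flanks, Ccl20 was open in IL-10+ Treg and Th17 cells and at a low level elsewhere. In the cecum, IL-10+ Treg cells had 29.6 FPM (169 fragments, interval 25.3 to 34.4) and Th17 cells 20.7 FPM (18 fragments, 12.2 to 32.7). In the tumor, they had 21.6 FPM (59 fragments, 16.5 to 27.9) and 20.1 FPM (47 fragments, 14.8 to 26.7). The intervals of these labels overlapped in both libraries. The log2 ratio of Th17 over IL-10+ Treg cells was -0.52 (-1.31 to 0.19) and -0.11 (-0.69 to 0.47), and at this depth the labels could not be told apart, although a level in Th17 cells below that of IL-10+ Treg cells by 2-fold is inside the cecum interval. Tfh-like cells, the CD4+ cells that help B cells, came next at 3.75 FPM (8 fragments, 1.62 to 7.39) and 7.13 FPM (4 fragments, 1.94 to 18.3), and Rorgt gdT cells had 2.775 and 3.76 FPM (6 and 8 fragments). The PD1+ CD4 label had 14 cecum cells, was therefore ranked only in the tumor, and had 3.91 FPM there (24 fragments), between Tfh-like and Rorgt gdT cells. IL-10- Treg cells had 0.333 FPM (1 fragment) and 1.89 FPM (11 fragments). The median over the labels with at least 50 cells was 0.941 and 1.67 FPM. No fragment was found in cecum CCR7+ CD4, CCR7+ CD8, CD8aa and Innate-like T#2 cells and in tumor Cytotoxic CD8 cells.

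Daw1 had the same leading labels, but with a wider gap between them. In the cecum, IL-10+ Treg cells had 55.7 FPM (318 fragments, 49.7 to 62.2), Th17 cells 14.9 FPM (13 fragments, 7.95 to 25.5) and Rorgt gdT cells 8.79 FPM (19 fragments, 5.29 to 13.7). In the tumor the levels were 45.1 FPM (123 fragments, 37.5 to 53.8), 20.5 FPM (48 fragments, 15.1 to 27.2) and 7.53 FPM (16 fragments, 4.30 to 12.2). IL-10+ Treg cells stood apart from both, and Th17 and Rorgt gdT cells stood apart from each other in the tumor and overlapped in the cecum. The log2 ratio of Th17 over IL-10+ Treg cells was -1.90 (-2.82 to -1.10) and -1.14 (-1.65 to -0.64). IL-10- Treg cells had 2.67 and 4.13 FPM (8 and 24 fragments), and the median label 1.26 and 1.42 FPM.

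Ppp1r14c was led by a label outside the Treg cells. Rorgt gdT cells had 108 FPM (233 fragments, 94.4 to 123) and 104 FPM (222 fragments, 91.2 to 119), above every other label in both libraries with no overlap of intervals. Th17 cells had 72.3 FPM (63 fragments, 55.6 to 92.6) and 54.7 FPM (128 fragments, 45.6 to 65.1), and IL-10+ Treg cells 55.9 FPM (319 fragments, 49.9 to 62.4) and 55.7 FPM (152 fragments, 47.2 to 65.3), and these labels overlapped. The log2 ratio of Rorgt gdT over IL-10+ Treg cells was 0.95 (0.70 to 1.20) and 0.91 (0.60 to 1.21), and over Th17 cells it was 0.57 (0.17 to 1.0002) and 0.93 (0.61 to 1.26). A gap to the remaining labels followed. Cytotoxic CD8 cells were at 9.74 FPM (6.70 to 13.7) and 13.1 FPM (9.65 to 17.3), IL-10- Treg cells at 4.67 and 6.20 FPM (14 and 36 fragments), and the median label at 5.11 and 6.08 FPM.

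Rbm24 was about as open in Rorgt gdT as in IL-10+ Treg cells. Rorgt gdT cells had 18.0 FPM (39 fragments, 12.8 to 24.7) and 16.0 FPM (34 fragments, 11.1 to 22.4), and IL-10+ Treg cells 17.3 FPM (99 fragments, 14.1 to 21.1) and 22.0 FPM (60 fragments, 16.8 to 28.3). The log2 ratio of these labels was 0.06 (-0.52 to 0.61) and -0.46 (-1.11 to 0.17), and their order turned between the libraries within the overlap of the intervals. Th17 cells were lower, at 6.89 FPM (6 fragments, 2.53 to 14.996) and 9.40 FPM (22 fragments, 5.89 to 14.2), with a log2 ratio over IL-10+ Treg cells of -1.33 (-2.81 to -0.16) and -1.23 (-2.0015 to -0.50). The cecum value rests on 6 fragments and turned to 0.34 when the window took in 25 kb on each side. Innate-like T#1 cells were at the level of Th17 cells, at 7.07 FPM (5.35 to 9.15) and 7.20 FPM (5.79 to 8.85), and Innate-like T#2 cells were at 9.43 and 6.63 FPM. IL-10- Treg cells had 3.67 and 3.62 FPM (11 and 21 fragments), next to the median label at 3.93 and 4.53 FPM.

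For 9430069I07Rik, IL-10+ Treg cells led all labels, at 12.96 FPM (74 fragments, 10.2 to 16.3) and 15.03 FPM (41 fragments, 10.8 to 20.4). Th17 cells had 4.59 FPM (4 fragments) and 4.27 FPM (10 fragments, 2.05 to 7.86), and Rorgt gdT cells 3.24 FPM (7 fragments) and 5.65 FPM (12 fragments, 2.92 to 9.86). Their intervals overlapped with those of several labels lower in the order, IL-10- Treg cells at 1.9995 and 2.24 FPM among them. The log2 ratio over IL-10+ Treg cells was -1.50 (-3.41 to -0.08) and -1.81 (-2.98 to -0.79) for Th17 and -2.0012 (-3.36 to -0.89) and -1.41 (-2.48 to -0.46) for Rorgt gdT cells. Matn2, which contains the transcript, was at 109 FPM and 109.6 FPM in IL-10+ Treg cells, 49.0 and 45.0 FPM in IL-10- Treg cells, 46.7 and 68.7 FPM in Rorgt gdT cells and 36.7 and 39.8 FPM in Th17 cells, and its median label was at 18.0 and 17.9 FPM.

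**Figure D1:**
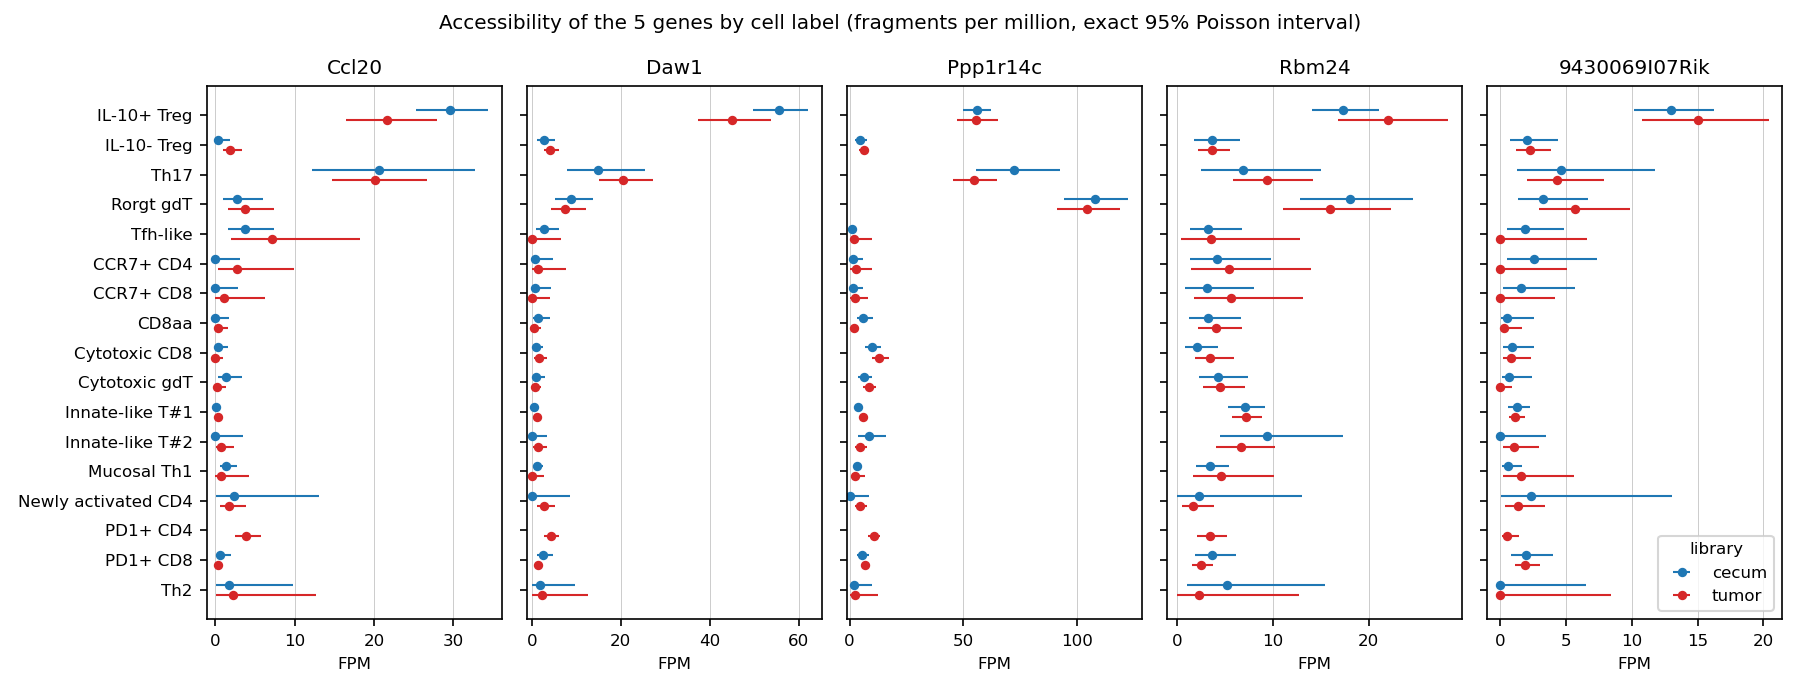
FPM (x axis, linear, its own scale for each gene) over the window of each of the 5 genes, for each label (y axis) in the cecum (blue) and tumor (red) libraries, with exact 95% Poisson intervals as bars; PD1+ CD4 cells of the cecum (14 cells) are left out. IL-10+ Treg cells and Th17 cells lie together at Ccl20, IL-10+ Treg cells lie alone at Daw1 (55.7 and 45.1 FPM), and Rorgt gdT cells lie highest at Ppp1r14c (108 and 104 FPM).

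For every gene with at least 50 fragments in each library, each of 14 non-Treg labels was compared with the median of the other 13, again with 1 FPM added. Of 17356 genes, 1.34% were at least 2-fold higher in Th17 cells in both libraries, and 2.64% were in Rorgt gdT cells. Of the 5 members, 4 passed in Th17 cells and 4 in Rorgt gdT cells, with Ccl20, Daw1 and Ppp1r14c in both. The minimum was counted over all labelled cells, and the non-Treg labels of the cecum held 49 fragments of Ccl20 and 47 of 9430069I07Rik, so these genes reached it only with the Treg fragments that chose them. With the minimum over the non-Treg labels alone, chosen after seeing the data, the other 3 members were tested, of which Daw1 and Ppp1r14c passed in Th17 cells, beside 1.28% of 17023 genes, and all 3 in Rorgt gdT cells, beside 2.58%. Rbm24 missed in Th17 cells (log2 0.78 and 0.91) and 9430069I07Rik in Rorgt gdT cells (0.92 and 1.89). In Th17 cells the values were 3.80 and 3.57 for Ccl20, 2.9955 and 3.21 for Daw1, 3.92 and 3.30 for Ppp1r14c and 1.32 and 1.55 for 9430069I07Rik. In Rorgt gdT cells they were 4.49 and 4.22 for Ppp1r14c, 2.29 and 1.87 for Daw1, 2.05 and 1.62 for Rbm24 and 1.28 and 1.43 for Ccl20. The Ccl20 values rest on 6 and 8 fragments. With a pseudocount of 5 FPM, Ccl20 and Daw1 no longer passed in Rorgt gdT cells, beside 1.65% of genes.

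In any of the other 12 non-Treg labels, 7.51% of genes passed, and 2 members did so, Ccl20 in Tfh-like cells (log2 1.61 and 2.20, from 8 and 4 fragments) and Ppp1r14c in Cytotoxic CD8 cells (1.15 and 1.32). Ccl20 was again tested only through its Treg fragments. With the minimum over the non-Treg labels alone, Ppp1r14c passed of 3 members tested, beside 7.41% of genes. No member passed with a pseudocount of 5 FPM, beside 4.23%, or against the mean of the remaining labels, beside 5.72%. Counted within 1 kb of either gene end, only Ppp1r14c and Rbm24 still had 50 fragments in each library, of which Ppp1r14c passed in Th17 cells, beside 0.994% of 13686 genes, and both in Rorgt gdT cells, beside 1.63%. Over the spans without flanks 4 members were tested, Ccl20 being under the minimum. Ppp1r14c and 9430069I07Rik passed in Th17 cells, beside 1.23% of 16183 genes. In Rorgt gdT cells Ppp1r14c, Rbm24 and 9430069I07Rik passed, beside 2.55%. Of these genes, 9430069I07Rik had 47 non-Treg cecum fragments even with flanks, so it reached the minimum only with Treg fragments. Daw1 too reached the minimum over its span only with Treg fragments, 108 of them in cecum IL-10+ Treg cells. It passed in neither Th17 nor Rorgt gdT cells. That span held 2 fragments in cecum Th17 cells (2.30 FPM) and 30 in tumor Th17 cells (12.8 FPM, 8.65 to 18.3). In Rorgt gdT cells it held 8 and 4 fragments (3.70 and 1.88 FPM).

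Most fragments of IL-10+ Treg and Th17 cells at the chromosome 1 locus lay outside the gene spans, on both sides of Ccl20. The 40.6 kb between Ccl20 and Daw1 held 119 FPM and 94.6 FPM in IL-10+ Treg cells (677 and 258 fragments), 83.8 and 69.2 FPM in Th17 cells, 25.9 and 24.5 FPM in Rorgt gdT cells and 5.33 and 5.34 FPM in IL-10- Treg cells. Above IL-10- Treg cells there were also cecum Cytotoxic CD8 cells at 10.03 FPM (34 fragments, 6.95 to 14.02), which had 1.33 FPM in the tumor, and tumor PD1+ CD4 and Newly activated CD4 cells at 8.46 and 7.67 FPM (52 and 23 fragments). The 54.8 kb from Krtap28-13, the nearest gene before Ccl20, to Ccl20 held 91.8 and 73.7 FPM in IL-10+ Treg cells (524 and 201 fragments), 53.97 and 55.997 FPM in Th17 cells, 12.95 and 14.6 FPM in Rorgt gdT cells and 8.998 and 13.95 FPM in IL-10- Treg cells. Tumor PD1+ CD4 cells were the highest remaining tumor label there, at 17.3 FPM (106 fragments), and cecum Th2, Newly activated CD4 and Tfh-like cells had 19.3, 18.7 and 15.5 FPM (11, 8 and 33 fragments). The span of Ccl20 held 3.85 and 2.93 FPM in IL-10+ Treg cells, and the 50.8 kb span of Daw1 18.9 and 19.8 FPM. In Th17 cells the Ccl20 span held only 3 fragments in each library (3.445 and 1.28 FPM). The locus was cut into 209 tiles of 500 bp, from 5 kb before Ccl20 to 5 kb past Daw1, and the 5 highest tiles held 45.1% of the 1187 tile counts of cecum IL-10+ Treg cells and 39.1% of the 481 of the tumor. In 6 tiles both Treg labels together had at least 20 fragments in each library, and these are described. They reached this number through IL-10+ Treg fragments, since IL-10- Treg cells had at most 8 in any of them, so ratios over IL-10+ Treg cells are read on tiles picked for a high count in that label.

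The highest tile, chr1:83138001-83138500, lay in no gene span, 21.5 kb past the start of Ccl20 and 21.5 kb before that of Daw1. IL-10+ Treg cells had 30.7 FPM there (175 fragments, 26.3 to 35.5) and 26.4 FPM (72 fragments, 20.7 to 33.2), and Th17 cells 33.3 FPM (29 fragments, 22.3 to 47.8) and 29.5 FPM (69 fragments, 22.9 to 37.3). The log2 ratio of Th17 over IL-10+ Treg cells was 0.12 (-0.50 to 0.69) and 0.16 (-0.34 to 0.66), so the labels were not told apart at this tile. Rorgt gdT cells were lower but far from closed, at 12.95 FPM (28 fragments, 8.61 to 18.7) and 7.06 FPM (15 fragments, 3.95 to 11.6), a log2 ratio over IL-10+ Treg cells of -1.24 (-1.87 to -0.66) and -1.90 (-2.81 to -1.09). IL-10- Treg cells had 1.33 and 1.38 FPM (4 and 8 fragments), and the 13 other labels pooled 0.465 and 0.468 FPM. The next tile, 83138501 to 83139000, had 10.3 and 7.33 FPM in IL-10+ Treg cells, 6.89 and 8.55 FPM in Th17 cells and no fragment in IL-10- Treg cells.

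The tiles just before Daw1 gave another order. At 83156501 to 83157000, 3.0 kb before the Daw1 span, IL-10+ Treg cells had 24.9 FPM (142 fragments, 20.9 to 29.3) and 15.4 FPM (42 fragments, 11.1 to 20.8), and Th17 cells 6.89 and 2.99 FPM (6 and 7 fragments). At 83157001 to 83157500, IL-10+ Treg cells had 18.9 and 12.5 FPM and Th17 cells 5.74 and 1.28 FPM. The log2 ratios of Th17 over IL-10+ Treg cells were -1.85 (-3.32 to -0.69) and -2.36 (-3.76 to -1.20) at the former and -1.72 (-3.37 to -0.45) and -3.28 (-5.63 to -1.61) at the latter. In both libraries these values and intervals were below those of the midway tile, with no overlap of intervals at the former tile in either library and at the latter in the tumor only. Rorgt gdT cells had 3.24 and 3.29 FPM at the former and 3.24 and 3.76 FPM at the latter. The tile over the start of Daw1 had 5.78 and 6.60 FPM in IL-10+ Treg cells (33 and 18 fragments), and in Th17 cells 0 fragments in the cecum, where 3 fragments would be 3.44 FPM, and 8 in the tumor (3.42 FPM).

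The tile 5.0 kb before Ccl20, 83111501 to 83112000, had 8.93 and 7.33 FPM in IL-10+ Treg cells (51 and 20 fragments). Th17 cells had 2 fragments there (2.30 FPM) and 18 (7.69 FPM), and Tfh-like cells were the highest of the pooled labels at 1.88 and 5.35 FPM. Its fragments were short, with a median length of 77 bases in cecum and 84 bases in tumor IL-10+ Treg cells, against 167 and 159 bases over chromosome 1. The midway tile had medians of 161 and 192 bases, those before Daw1 135 and 116 bases for the former and 126.5 and 109.5 bases for the latter, and the tile over the start of Daw1 183 and 196.5 bases. Fragments shorter than the DNA around a nucleosome come mostly from nucleosome-free DNA.

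**Figure D2:**
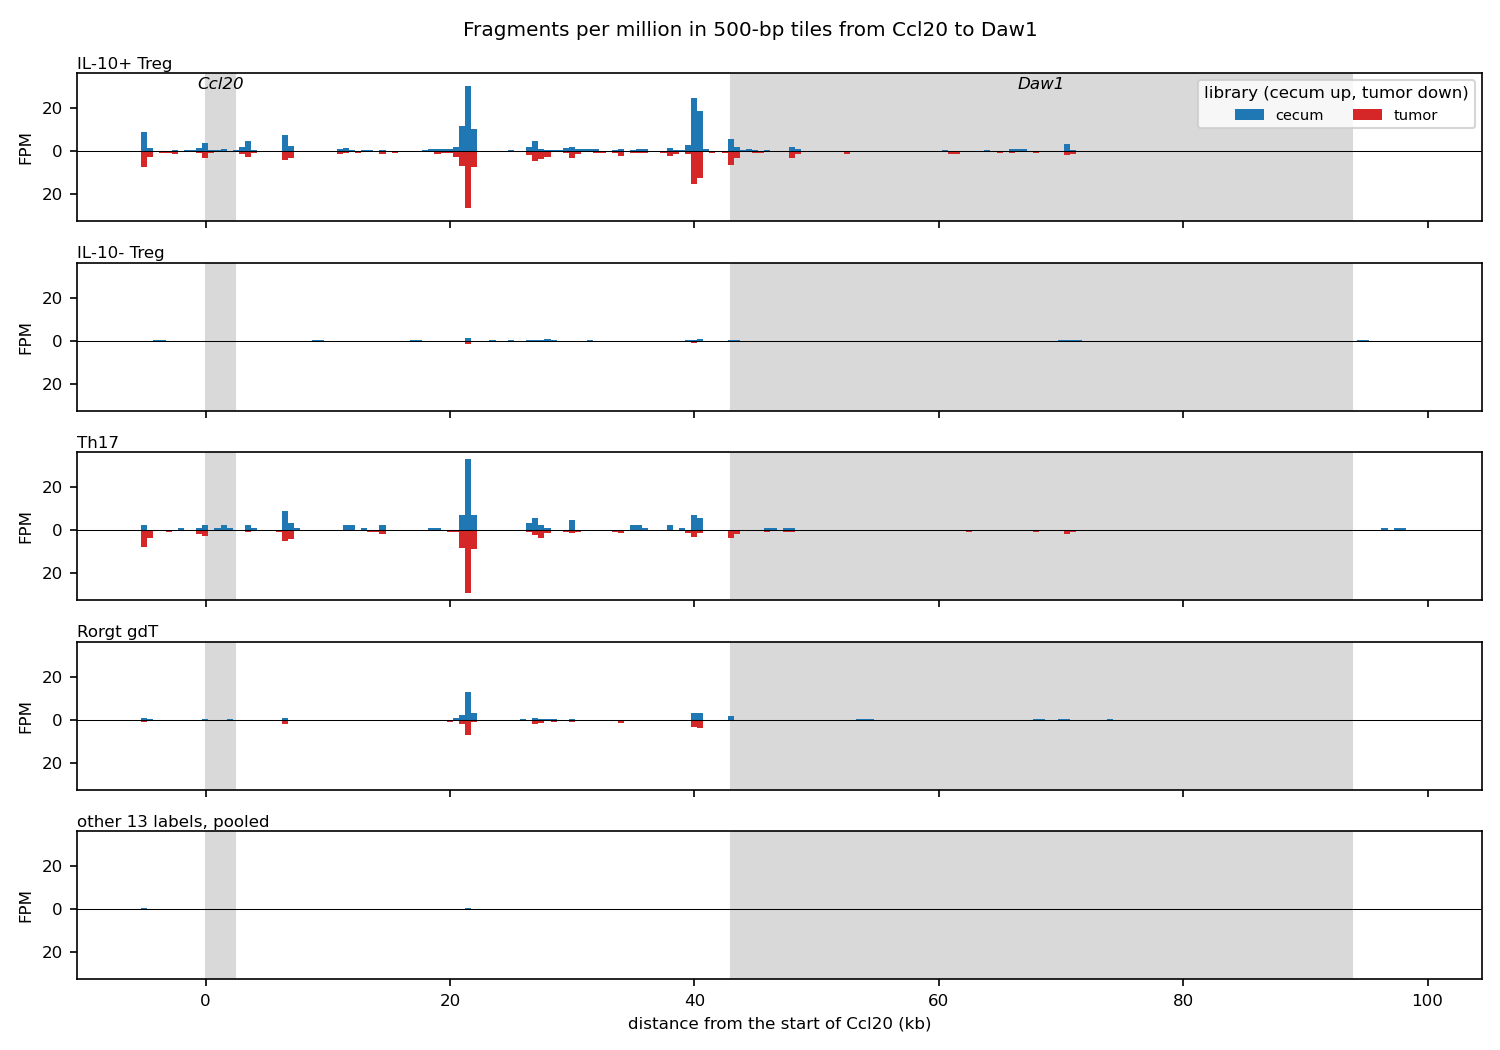
FPM in 500-bp tiles by distance in kb from the start of Ccl20, with the cecum drawn upward and the tumor downward, for IL-10+ Treg, IL-10- Treg, Th17 and Rorgt gdT cells and the 13 other labels pooled; grey marks the spans of Ccl20 and Daw1. The tile midway between the genes is high in IL-10+ Treg (30.7 and 26.4 FPM) and Th17 cells (33.3 and 29.5 FPM), and the tiles just before Daw1 are high in IL-10+ Treg cells.

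**Figure D3:**
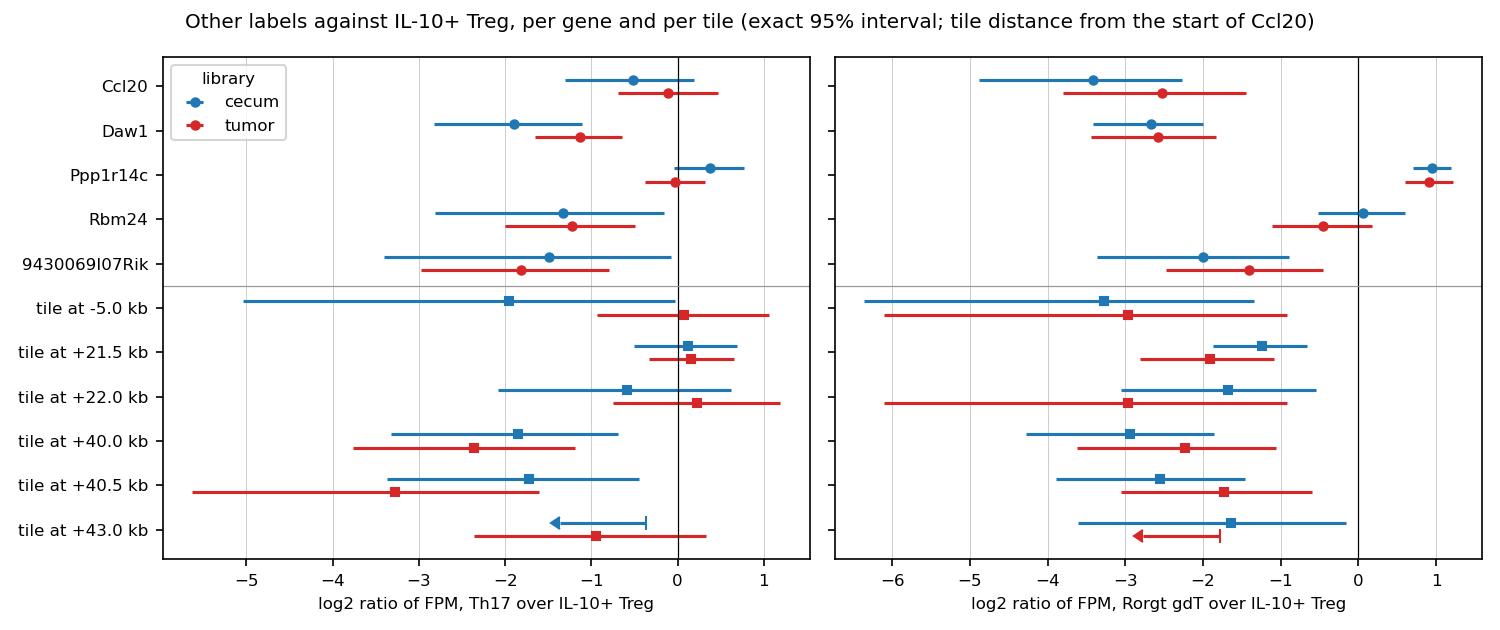
Log2 ratios of FPM (x axis) of Th17 cells (left) and Rorgt gdT cells (right) over IL-10+ Treg cells, for the 5 genes (circles) and the 6 described tiles (squares, named by distance from the start of Ccl20), in the cecum (blue) and tumor (red), with exact 95% intervals as bars and arrows where a label had no fragment and the value is an upper bound. Ppp1r14c lies above 0 in Rorgt gdT cells (0.95 and 0.91), and the midway tile, at +21.5 kb, lies at 0 in Th17 cells (0.12 and 0.16).

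The region open in both IL-10+ Treg and Th17 cells was bounded on each side by bins with few fragments. In 20-kb bins counted from the start of Ccl20, and within 100 kb of it on either side, IL-10+ Treg and Th17 cells were highest from 20 to 40 kb, at 68.7 and 57.6 FPM against 57.4 and 51.3 FPM. The next highest bin of that stretch, 40 to 20 kb before Ccl20, had 49.9 and 38.9 FPM in IL-10+ Treg and 33.3 and 33.3 FPM in Th17 cells, with 5.33 and 5.86 FPM in IL-10- Treg cells. From 40 to 60 kb the labels parted, at 42.7 and 33.4 FPM against 9.19 and 11.5 FPM. From 80 to 100 kb IL-10+ Treg cells were at 1.58 and 0.367 FPM. The 44.9 kb between Daw1 and Sphkap held 2.10 and 1.83 FPM in IL-10+ Treg cells, and Sphkap itself was at 2.63 and 4.77 FPM. On the other side Krtap28-13, 54.84 kb before Ccl20, was at 3.15 and 3.67 FPM. Slc19a3, 77.95 kb before Ccl20, was at 7.18 and 8.80 FPM in IL-10+ and 5.9985 and 6.72 FPM in IL-10- Treg cells. Farther away, Agfg1 spanned 78.6 to 209 FPM over the cecum labels and Mff 36.7 to 51.8 FPM, so both were open in every ranked label there. The highest bin of the whole region lay near Agfg1, 300 to 280 kb before Ccl20, at 181 and 169 FPM in IL-10+ Treg, 123 and 112 FPM in Th17, 139 and 133 FPM in IL-10- Treg and 91.1 and 87.97 FPM in Rorgt gdT cells, and 149.5 and 138 FPM in the 13 other labels pooled.

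A bin farther upstream, 120 to 100 kb before Ccl20, was open in both Treg labels, at 23.1 and 32.3 FPM in IL-10+ and 24.0 and 26.9 FPM in IL-10- Treg cells, and low in Th17 cells (2.30 and 3.85 FPM). Tiles outside the planned stretch were added after the bins were seen. They placed this signal at 83006001 to 83006500, where IL-10+ Treg cells had 15.4 FPM (12.4 to 18.99) and 19.1 FPM (14.2 to 24.998), IL-10- Treg cells 16.3 FPM (12.1 to 21.6) and 16.4 FPM (13.2 to 20.004), Tfh-like cells 21.1 and 21.4 FPM, Th17 cells 1.15 and 3.42 FPM and Rorgt gdT cells 0 and 0.941 FPM. In the adjoining tile, 83006501 to 83007000, IL-10+ Treg cells had 9.81 and 12.5 FPM and IL-10- Treg cells 9.33 and 7.75 FPM, and the highest other label was Tfh-like cells in the cecum (9.85 FPM) and PD1+ CD4 cells in the tumor (11.4 FPM). Among the added tiles, 83077001 to 83077500, 39.5 kb before Ccl20, had 14.5 and 14.3 FPM in IL-10+ Treg, 8.04 and 17.1 FPM in Th17 and 2.67 and 3.45 FPM in IL-10- Treg cells.

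**Figure D4:**
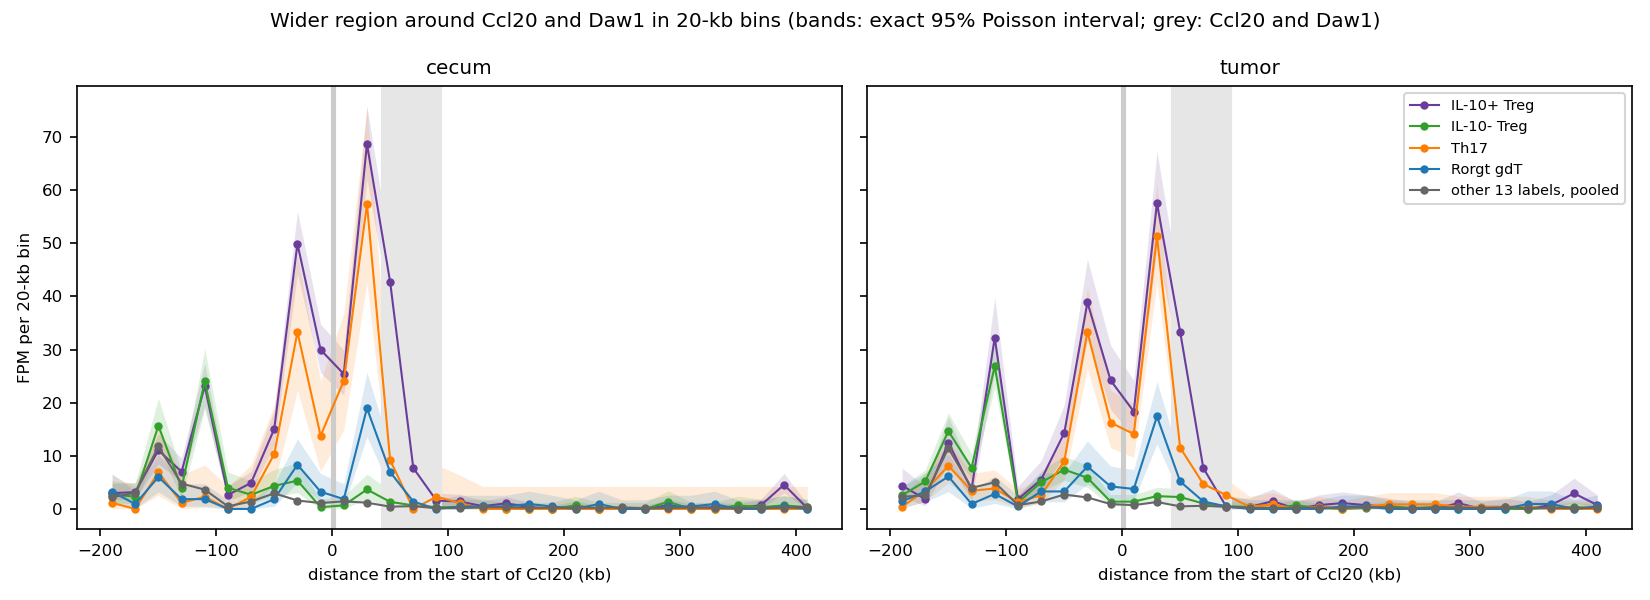
FPM in 20-kb bins (y axis) by distance in kb from the start of Ccl20 (x axis) in the cecum (left) and tumor (right) for IL-10+ Treg, IL-10- Treg, Th17 and Rorgt gdT cells and the 13 other labels pooled, with exact 95% Poisson bands and grey spans for Ccl20 and Daw1. Within 100 kb of Ccl20, IL-10+ Treg and Th17 cells peak together from 20 to 40 kb (68.7 and 57.6 FPM against 57.4 and 51.3 FPM), and both Treg labels share the bin 120 to 100 kb upstream. Bins farther upstream than 200 kb, which are higher near Agfg1, are not drawn.

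At Ppp1r14c and Rbm24 the described tiles lay at the start of the gene. Of 219 tiles at Ppp1r14c, 2 reached the minimum, 3366001 to 3366500 and 3366501 to 3367000. In the latter, IL-10+ Treg cells had 7.18 FPM and 8.80 FPM, Th17 cells 4.59 and 10.3 FPM, Rorgt gdT cells 11.6 and 10.8 FPM and IL-10- Treg cells 0.666 and 1.21 FPM. In cecum IL-10+ Treg cells the former tile held 32 and the latter 41 of 447 tile counts. The window was less concentrated than the chromosome 1 locus, with 30.0% and 34.1% of the tile counts of IL-10+ Treg cells in the 5 highest tiles. The tile 100.1 kb from the start, past the end of the gene, was among the 3 highest of IL-10+ Treg cells, at 4.55 and 4.40 FPM, and had 2.775 and 8.94 FPM in Rorgt gdT cells. A tile inside the gene at 3435001 to 3435500, chosen after its values were seen, had 12.03 FPM in cecum Rorgt gdT cells (26 fragments, 7.86 to 17.6) against 1.05 FPM in IL-10+ Treg cells (6 fragments, 0.386 to 2.29), and 5.17 FPM (11 fragments, 2.58 to 9.26) against 2.57 FPM (7 fragments, 1.03 to 5.29) in the tumor, where the intervals overlapped. Th17 cells had 1 fragment there in each library.

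Rbm24 had 47 tiles, of which 2 reached the minimum, and 68.8% and 79.8% of the tile counts of IL-10+ Treg cells lay in the 5 highest. At 46418501 to 46419000, IL-10+ Treg cells had 6.66 and 7.70 FPM, Rorgt gdT cells 6.48 and 4.23 FPM, Th17 cells 2.30 and 2.99 FPM and the 13 other labels pooled 1.68 and 1.61 FPM. At 46419001 to 46419500 the levels were 4.03 and 7.70 FPM in IL-10+ Treg and 6.01 and 7.53 FPM in Rorgt gdT cells. None of the 38 tiles of 9430069I07Rik reached the minimum, and its highest, 34351501 to 34352000, had 25 and 15 fragments in IL-10+ Treg cells (4.38 and 5.50 FPM) and 0.666 and 0.517 FPM in IL-10- Treg cells. Tiles over Matn2, added after the data were seen, were higher elsewhere in the gene, at 34389001 to 34389500, with 15.2 and 10.6 FPM in IL-10+ Treg, 2.67 and 2.41 FPM in IL-10- Treg and 6.01 and 6.59 FPM in Rorgt gdT cells.

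**Figure D5:**
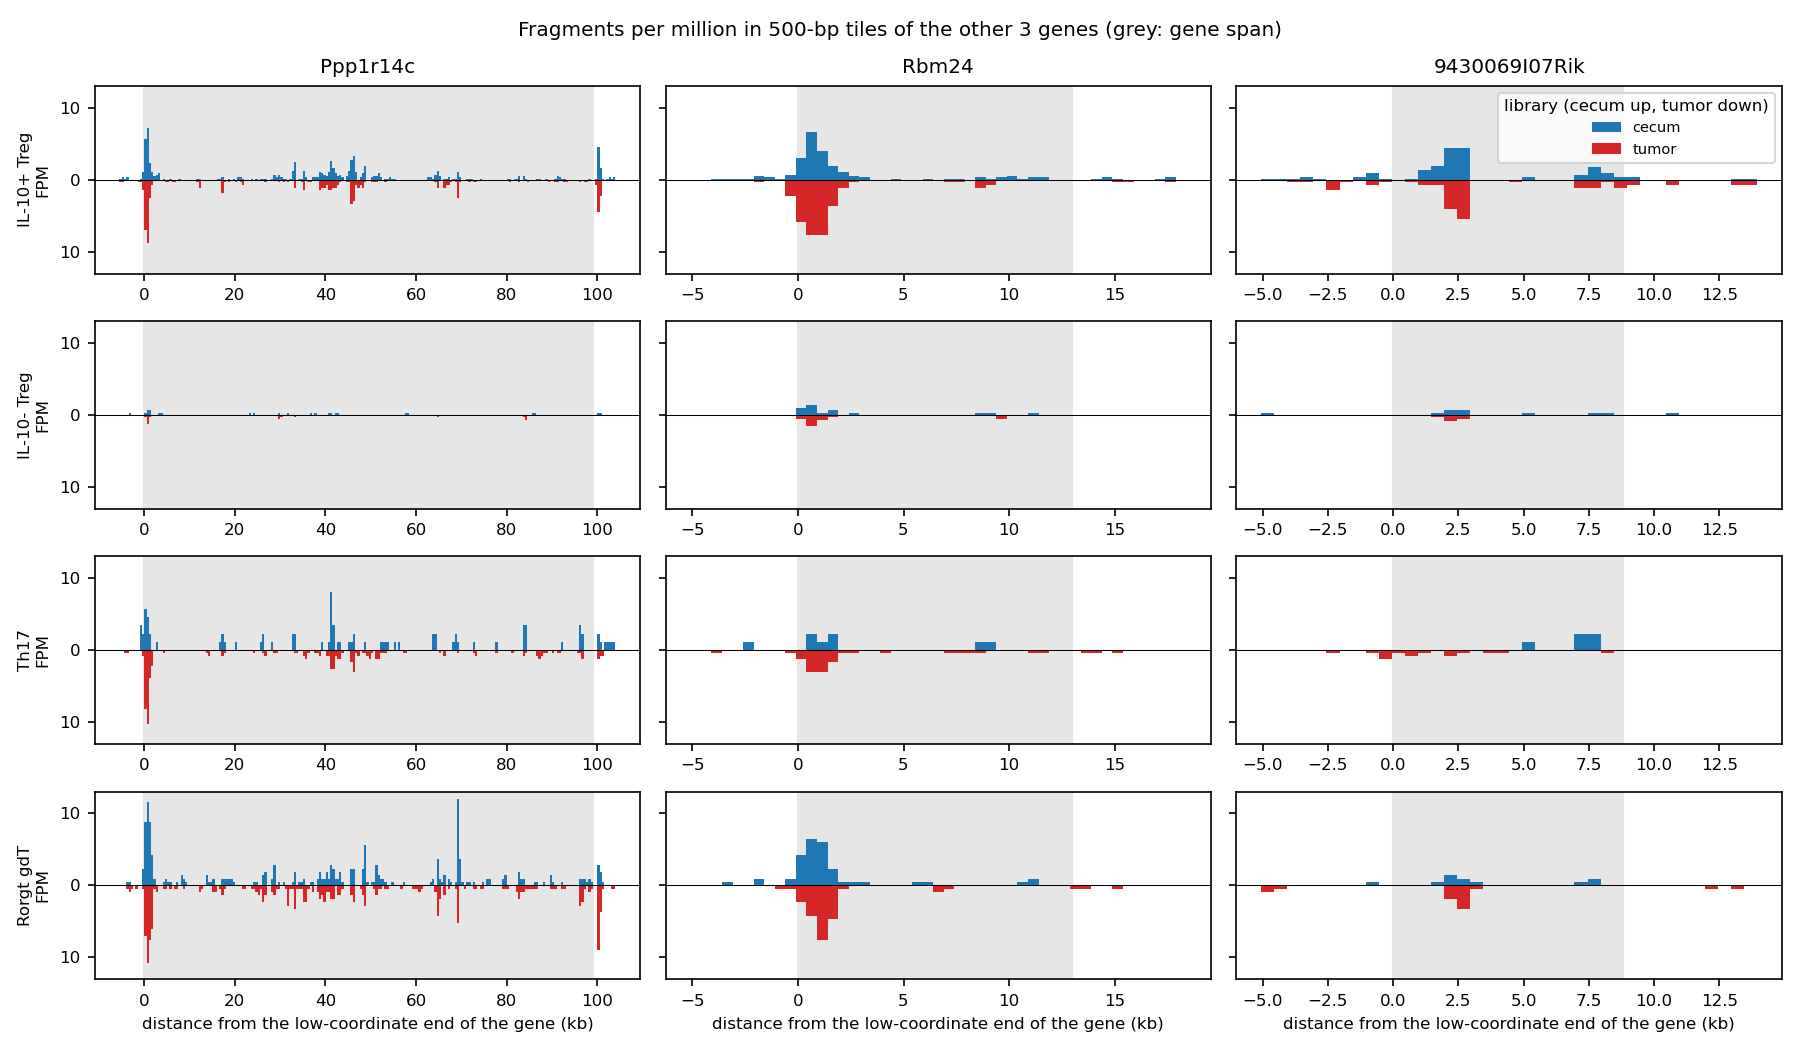
FPM (y axis) in 500-bp tiles of Ppp1r14c, Rbm24 and 9430069I07Rik by distance in kb from the low-coordinate end of the gene (x axis), with the cecum drawn upward and the tumor downward, in IL-10+ Treg, IL-10- Treg, Th17 and Rorgt gdT cells; grey marks the gene span. Tiles at the start of Ppp1r14c and Rbm24 are high in IL-10+ Treg and Rorgt gdT cells, and a tile inside Ppp1r14c is high in Rorgt gdT cells (12.03 and 5.17 FPM).

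IL-10+ Treg cells of the tumor and the cecum were within 2-fold of each other at these genes. Their levels in both libraries entered the choice of the members, so this closeness is partly fixed by that choice. In IL-10+ Treg cells the log2 ratio of tumor over cecum was -0.45 for Ccl20 (-0.91 to -0.02), -0.30 for Daw1 (-0.62 to 0.00), 0.00 for Ppp1r14c (-0.29 to 0.28), 0.34 for Rbm24 (-0.14 to 0.82) and 0.21 for 9430069I07Rik (-0.37 to 0.78). None of the members was past 2-fold, against 0.104% of 14409 genes that were lower and 0.319% that were higher in the tumor. The Ccl20 interval excluded 0 and the Daw1 interval ended at it, and the Daw1 value turned to 0.066 over the span without flanks and 0.18 within 1 kb of either gene end. With 1 library a tissue these ratios have no replicate check.

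In single cells the loci were sparse. A Ccl20 fragment was found in 13.6% of cecum IL-10+ Treg cells (11.5% to 15.8%) and in 12.7% of those of the tumor, in 11.4% and 10.9% of Th17 cells, and in 0.236% and 1.36% of IL-10- Treg cells. After thinning every cell to 2000 fragments and leaving out shallower cells, these shares were 5.66% and 3.92%, 4.94% and 3.28%, and 0.192% and 0.349%, in the same order. For Daw1 the thinned shares were 10.6% and 7.78% in IL-10+ Treg, 2.64% and 4.38% in Th17 and 1.66% and 1.44% in Rorgt gdT cells. For Ppp1r14c they were 17.6% and 17.7% in Rorgt gdT, 12.1% and 9.07% in Th17 and 9.76% and 10.8% in IL-10+ Treg cells. A fragment at none of the 5 genes was found in 55.1% and 50.9% of IL-10+ Treg cells, which had a median of 2346 and 3397 fragments, and 3 genes were hit in 4.22% and 5.43%, which had 12934.5 and 14722.

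IL-10+ Treg cells with a Ccl20 fragment more often had one at Daw1 or Ppp1r14c, and these cells were also deeper. In cecum IL-10+ Treg cells a Daw1 fragment was found in 37.0% of cells with and 18.5% of cells without a Ccl20 fragment, with medians of 9211 and 3539 fragments per cell, and in the tumor in 46.9% and 16.9%, with 12423 and 5094.5. For Ppp1r14c, on another chromosome, the same split gave 38.5% and 18.5% for cecum cells, then 44.9% and 24.0% for tumor cells. Th17 cells were too few in the cecum to read a direction, with a Ppp1r14c fragment in 2 of 10 cells with a Daw1 fragment (2.52% to 55.6%) and 29.8% of 121 cells without (21.8% to 38.7%), while in the tumor the shares were 37.8% and 22.3% (22.5% to 55.2% and 17.3% to 27.9%). The part of depth in these shares was not tested.

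Part of a list of type 17 genes, which holds none of the members, was also more open in IL-10+ than in IL-10- Treg cells. Of 13 listed genes, 10 had enough fragments in the Treg contrast, and 4 were at least 2-fold higher in IL-10+ than in IL-10- Treg cells of each library, beside 0.278% of all genes, among them the interleukin-23 receptor gene Il23r, the interleukin-1 receptor gene Il1r1 and the membrane protein gene Tmem176a. The median over the 10 genes of the smaller log2 ratio was 0.78, beside -0.08 over all genes tested. Not all listed genes were higher. Rora was lower in IL-10+ Treg cells, at -0.54 and -0.39, and Ahr (0.06 and 0.15) and Ccr6 (0.19 and 0.32) were near 0. Il1r1 had already been seen just outside the ranking that chose the members. In Th17 and in Rorgt gdT cells 9 of 13 genes passed against the other non-Treg labels, beside 1.34% and 2.64% of all genes. They were the 4 past 2-fold in the Treg contrast and Il17a, Il17f, Il22, Ccr6 and Tmem176b. The medians over the list were 1.75 and 1.78, beside -0.15 and -0.18 over all genes. Il17a, which encodes interleukin-17A, was at 82.7 and 68.0 FPM in Th17, 39.3 and 72.4 FPM in Rorgt gdT, 23.5 and 13.6 FPM in IL-10+ Treg and 1.67 and 1.21 FPM in IL-10- Treg cells. With the Treg contrast counted within 1 kb of either gene end, fewer of the listed genes passed, beside 0.102% of 10806 genes.

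Lists of relatives of the members were too short to read a missing call against these shares of all genes, and the members' own calls in the Treg contrast follow from their choice. Of 19 CC chemokine ligand genes, 7 were tested in the Treg contrast and 13 in the others, and no gene but Ccl20 was past 2-fold higher. Ccl5, a chemokine of cytotoxic cells, was past 2-fold lower in IL-10+ than in IL-10- Treg cells, beside 1.3% of 14409 genes. No gene but Daw1 passed among 11 tested genes of axonemal dynein assembly, and none but Ppp1r14c in its family of 4 inhibitors. Among 6 RNA-binding relatives none but Rbm24 passed, and among the 4 matrilin genes none but Matn2, which shares fragments with 9430069I07Rik. Of the epithelial, B cell and myeloid genes 4, 4 and 3 were tested in the Treg contrast and 9, 6 and 5 in the others, and none was past 2-fold higher.

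Over 33 label and library columns with at least 50 cells, the genes most like each member were found by Pearson's r of log2(FPM + 1), as a description. Columns of the same library share a preparation, and columns of the same label a cell type. Among the 5 most like Ppp1r14c were Glyat (0.82), Ccdc63 (0.81), Acpp (0.79) and Daw1 (0.79). Those of Daw1 were Matn2 (0.85), Ifne (0.84), Ccdc63 (0.83), Adam12 (0.82) and Nfil3 (0.82), and those of 9430069I07Rik included Adam12 (0.80), Daw1 (0.80), Pdpn (0.77) and Ifne (0.76). Ccl20 was most like Abcc3, Cpe and Ppfibp1 (each 0.82), Angptl2 (0.81) and Daw1 (0.79), and Rbm24 most like Itgb5 (0.84), Unc93a (0.73), Ppp1r14c (0.73), Arrb1 (0.72) and Hbegf (0.72). These columns include the Treg labels by which the members were chosen, so likeness between members is partly fixed by that choice. Without the Treg labels 5 of the 25 genes were kept, and with ranks in place of values 4.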

How the data were processed

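The 10x multiome assay was run on T cells from AKP tumors and tumor-free cecum, and 1 ATAC library per tissue was used. Per the file headers, fragments were called by the authors in Cell Ranger ARC 2.0.0 against mm10, and each deposited line is 1 unique fragment with a raw count of its read pairs, not normalized. Duplicates had been collapsed, at 4.29 (cecum) and 3.11 (tumor) read pairs per fragment, so each fragment was counted once. Labels came from the authors' clustering of the RNA after quality filters on both data types, and the RNA counts were not analysed here. Doublets were not called, and the sources used here do not say whether the authors removed them.

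A fragment on chromosomes 1 to 19, X or Y was counted in a window if either end lay there. Genes (21887 protein-coding genes and Trdc) were taken from RefSeq spans of GRCm38.p6, a table that holds spans without exons. Single ratios used counts with exact conditional intervals, levels exact Poisson and shares Clopper-Pearson intervals, at 95%. Ratios over all genes added 1 FPM, which understates changes of low genes, and used genes with at least 50 fragments in each library, over both Treg labels for Treg contrasts and over all labelled cells for the others. A gene passed at 2-fold in both libraries. Labels with at least 50 cells were ranked.

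The members, the gene lists, the motifs and the naming rule were chosen with earlier results of these data known. The rule names the members, genes within 500 kb of Ccl20 or Daw1, genes whose window overlaps a member's, listed genes, the 5 most similar genes per member, genes next to the ranking limit and the 3 highest tiles per locus. The alternatives were other cell filters, windows, scalings, counted units, pseudocounts, minimums, folds, tile widths and thinning depths. The counter and the intervals were tested on simulated data. Python 3.11.15 was used with matplotlib 3.10.9, numba 0.67.0, scipy 1.17.1, pandas 2.3.3 and numpy 2.4.6. No genome sequence was used here beyond the RefSeq promoters. Ikzf4 had been set down as a marker of IL-10+ Treg cells in error, since the study lists it with IL-10- Treg cells. Some items are not reported here.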

Additional observations from a re-analysis of the deposited data

Results flagged for a closer look

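Ppp1r14c moved in opposite directions between the tissues in a pair of labels outside the main comparison. The log2 ratio of tumor over cecum was -1.58 in CD8aa cells (-3.14 to -0.15), from 7 fragments (2.02 FPM) in the tumor and 13 (6.03 FPM) in the cecum, and 0.66 in Innate-like T#1 cells (0.04 to 1.31), from 76 (6.08 FPM) and 31 (3.84 FPM). Both intervals excluded 0 and cover counting error only. They were found among 85 ratios of tumor over cecum, 5 genes by 17 labels, of which 64 had fragments in both libraries and 4 had an interval that excluded 0, and 95% intervals leave out the true value in about 1 of 20 cases. Each label had 1 library per tissue, so the difference between the labels was not tested.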

How the results depend on the processing

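Counting within 1 kb of either gene end changed most. The members past 2-fold fell from 4 to 1 in Th17 and from 4 to 2 in Rorgt gdT cells, beside 0.994% and 1.63% of all genes. Only 2 members instead of 5 reached the fragment minimum. The type 17 genes higher in IL-10+ over IL-10- Treg cells fell from 4 to 1, beside 0.278% and 0.102% of all genes. How many listed genes were still tested is not given. The pairs of member and library led by IL-10+ Treg, Th17 and Rorgt gdT cells fell from 7 of 10 to 2. That count is partly fixed by the choice of the members and has no share of all genes beside it. The Th17 count was 2 with spans without flanks (4 members tested, Daw1 and 9430069I07Rik only through their Treg fragments, 1.23% of all genes past 2-fold). It was 2 with a minimum of 200 fragments (3 tested, 1.08%), which Daw1 and Rbm24 reached only with Treg fragments. The non-Treg labels of the cecum held 69 fragments of Daw1 and 191 of Rbm24. With the minimum of 50 over the non-Treg labels alone the Th17 count was also 2 (3 tested, 1.28%). The Rorgt gdT count was 2 with a pseudocount of 5 FPM (5 tested, 1.65%), without Ccl20 and Daw1. Against the mean of the remaining labels it was 3 (5 tested, 2.02%), without Ccl20. When cells with over 3 times the median count of their library were dropped, 3 tiles rather than 6 had at least 20 Treg fragments, the number of fragments being smaller by construction, and the highest tile stayed the midway one in every alternative run on tiles. Of the 25 most similar genes, 4 were kept with Spearman's rho, 15 with a pseudocount of 5 FPM and 5 without the Treg labels. The Daw1 ratio of tumor over cecum in IL-10+ Treg cells was 0.066 without flanks and 0.18 within 1 kb of the gene ends instead of -0.30, and the cecum Rbm24 ratio of Th17 over IL-10+ Treg cells was 0.34 with flanks of 25 kb instead of -1.33. The cause was not tested. Of 310 single-value results under an alternative, 284 kept their direction and moved by less than their interval, 23 moved by more and 3 reversed. All 35 single values held with cells of at least 1000 fragments, with cut sites, with scaling by fragments near gene ends, without cells above 3 times the median, and without barcodes found in both libraries, an alternative chosen after seeing the data. The Th17 count of members fell to 3, without 9430069I07Rik, with cells of at least 1000 fragments (1.34% of all genes) and without cells above 3 times the median (1.14%). It was also 3 with a pseudocount of 5 FPM (0.755%). Without cells above 3 times the median, Ccl20 no longer passed in Tfh-like cells. No paired analysis was possible because each tissue had 1 library and no result comes from a test. Depth limits the reading of low levels. In cecum Th17 cells, with 870836 fragments, 3 fragments correspond to 3.44 FPM, and in cecum Newly activated CD4 cells, with 426832, to 7.03 FPM.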
